A study of Mus musculus with 14 samples.

Results

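The flavin-containing monooxygenase genes *Fmo1*, *Fmo2*, *Fmo4* and *Fmo5* were examined in mouse liver after bile diversion and gastric bypass. Members were the rows of the gene count table whose symbol was 1 of these 4 names, and 4 of 25212 rows met this rule. All 4 passed the filter on low counts and were tested in all 14 livers.

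The livers came from male C57BL/6 mice given a high-fat diet (HFD) from 6 weeks of age, for 12 weeks before any surgery and throughout afterwards. The diet-induced obese (DIO) group was 5 mice that had no operation, and no sham operation was done on these controls. In the GB-IL group (4 mice) the gallbladder was joined to the ileum and the common bile duct was ligated, so that bile entered the distal small intestine. The RYGB group (5 mice) had a Roux-en-Y gastric bypass, and by the labels both operated groups were sampled 8 weeks after the operation. The authors' caption for 1 panel of liver gene expression gives 4 weeks instead. Each liver gave 1 library, and p-values set group differences against the spread between these libraries, in which animal and technical differences cannot be told apart.

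Flavin-containing monooxygenases sit in the membrane of the endoplasmic reticulum. The enzyme takes electrons from NADPH onto its bound FAD, holds oxygen there as a hydroperoxyflavin, and transfers 1 oxygen atom to a soft nitrogen or sulphur atom of a drug, a dietary amine or a sulphur metabolite. FMO1 also converts hypotaurine to taurine, the amino acid to which mouse bile acids are conjugated, whereas FMO5 differs from the others in inserting oxygen beside a carbonyl group. FMO2 is best known from lung, and FMO4 is a low-abundance form whose substrates are poorly known.

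On the GRCm38 assembly, *Fmo1* (ENSMUSG00000040181) lies on chromosome 1 from 162829561 to 162866610, *Fmo2* (ENSMUSG00000040170) from 162874317 to 162898726 and *Fmo4* (ENSMUSG00000026692) from 162793188 to 162813972, all on the minus strand and within 105.5 kb. *Fmo5* (ENSMUSG00000028088) is on chromosome 3, from 97628804 to 97655282 on the plus strand. No other annotated gene overlapped any of the 4. No stretch of 50 exonic bases was shared between members, and none of *Fmo2* or *Fmo4* occurred in exons of another gene. Of the 50-base stretches of *Fmo1*, 7.02% also occurred in exons of another gene, and of those of *Fmo5* 0.434%.

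*Fmo2* varied more from liver to liver within DIO and within RYGB than the other members. In GB-IL, *Fmo5* and *Fmo1* varied more (SD of log2 CPM 2.23 and 1.16, against 0.943). Of the RefSeq windows found for members, only that before the first *Fmo2* start site was free of annotated exons. In the *Fmo4* and *Fmo5* windows, 104 and 215 of 250 bases were exonic. The *Fmo2* sequence is therefore given here (GRCm38.p6, chr1:162898759-162899008, minus strand, written from 5′ to 3′). It holds 250 bases and lies outside every annotated *Fmo2* exon.
Fmo2 upstream: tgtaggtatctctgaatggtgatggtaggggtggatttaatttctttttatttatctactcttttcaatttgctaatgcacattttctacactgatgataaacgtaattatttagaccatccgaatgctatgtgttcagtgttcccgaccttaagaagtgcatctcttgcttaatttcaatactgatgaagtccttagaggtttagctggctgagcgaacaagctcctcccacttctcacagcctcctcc
On either strand it was searched for TATAAA (the TATA box), AGGTCA (bound by nuclear receptors), GCGTG (the core of the aryl hydrocarbon receptor site), TGTTTAC (a forkhead site), TTCNNNGAA (bound by STAT5 and BCL6) and TTGCGCAA (a C/EBP palindrome). None of these motifs contains another. No match was found, and therefore no base is in capitals. Of all 32851 mouse windows of the same length, 12.4% held TATAAA, 14% AGGTCA, 28.2% GCGTG, 3.17% TGTTTAC, 7.02% TTCNNNGAA and 0.164% TTGCGCAA. The absence of these letters says nothing of whether the factors bind.

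Levels of different genes were compared as RPKM, that is, CPM (counts scaled to library size, adjusted by edgeR's TMM factors) per kilobase of annotated exon. *Fmo5* had the highest mean level, with 181 ± 66.2 RPKM (SD, n = 5) in DIO, 84.2 ± 82.9 RPKM (SD, n = 4) in GB-IL and 109.7 ± 52.4 RPKM (SD, n = 5) in RYGB. *Fmo1* followed with 40.2 ± 7.70 RPKM (SD, n = 5) in DIO, 23.7 ± 13.4 RPKM (SD, n = 4) in GB-IL and 28.5 ± 10.9 RPKM (SD, n = 5) in RYGB. *Fmo2* had 5.59 ± 3.15 RPKM in DIO, 9.15 ± 6.03 RPKM in GB-IL and 6.37 ± 7.52 RPKM in RYGB (SD, n = 5, 4 and 5), and *Fmo4* had 1.49 ± 0.459, 1.53 ± 0.379 and 1.68 ± 0.489 RPKM. Among 14115 tested genes with a known length, ordered by mean level over the 14 livers, *Fmo5* ranked 356, *Fmo1* 1280, *Fmo2* 4138 and *Fmo4* 8880.

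The order of the levels held in most but not all livers. *Fmo5* exceeded *Fmo1* in 13 of 14 livers, the exception being GB-IL liver 2 (19.8 against 22.8 RPKM). Per kilobase of the longest transcript, which roughly doubles the *Fmo1* level, *Fmo5* exceeded *Fmo1* in 11 of 14. *Fmo1* exceeded *Fmo2* in 13 of 14, the exception being GB-IL liver 1 (6.12 against 10.2 RPKM), and *Fmo2* exceeded *Fmo4* in 13 of 14, the exception being RYGB liver 2 (1.27 against 1.72 RPKM). In DIO the 5 livers of neighbouring genes in this order did not overlap for *Fmo5* and *Fmo1* or for *Fmo1* and *Fmo2*, whereas *Fmo2* and *Fmo4* did. In GB-IL the levels of *Fmo5* and *Fmo1* and of *Fmo1* and *Fmo2* overlapped, and those of *Fmo2* and *Fmo4* did not.

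Summed over the 4 genes, the level was 135.6, 190.0, 210.1, 277.1 and 329 RPKM in DIO livers 1 to 5. It was 24.6, 61.0, 173 and 216 RPKM in GB-IL livers 1 to 4, and 131, 121, 127, 99.97 and 252.5 RPKM in RYGB livers 1 to 5. The lowest sums of the series were those of GB-IL livers 1 and 2. The *Fmo5* share of this sum was 74.9% to 83.1% in the DIO livers. In GB-IL it was 28.5% in liver 1, 32.5% in liver 2, 80.3% in liver 3 and 79.4% in liver 4. In RYGB it was 57.1% in liver 1 and 76.8% to 80.4% in the others. In GB-IL liver 1 *Fmo2* held the largest share, 41.6%, and in GB-IL liver 2 *Fmo1* did, with 37.3%.

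**Figure D1:**
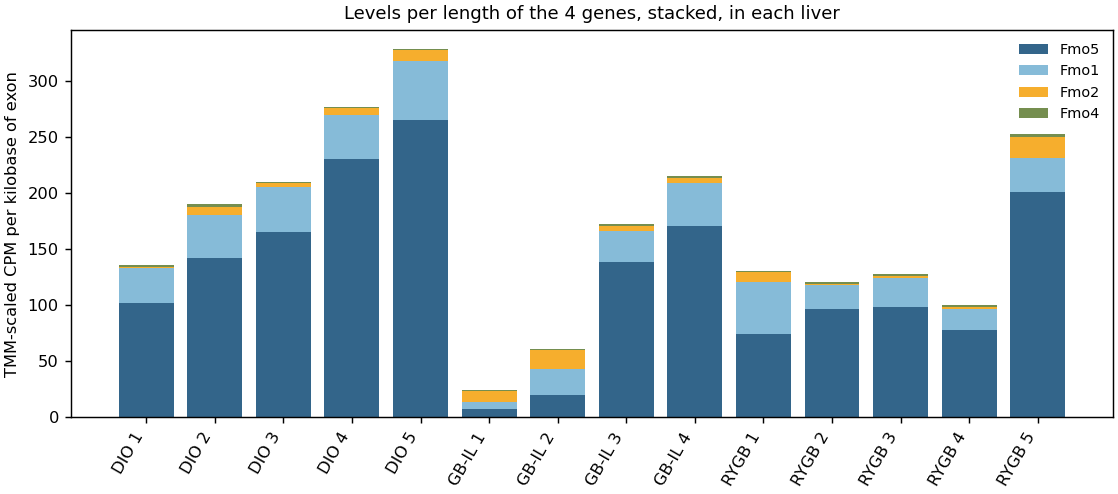
Levels of Fmo5, Fmo1, Fmo2 and Fmo4 in TMM-scaled CPM per kilobase of annotated exon, stacked for each of the 14 livers (vertical axis from 0; 1 bar per liver, with no error bar because each liver has 1 library). GB-IL livers 1 and 2 have the shortest bars, 24.6 and 61.0, and the Fmo5 share of the bar is 28.5% and 32.5% there.

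The total count lay between 18223135 and 28656631 per liver. In 1 fit of all livers with edgeR's quasi-likelihood test over 14252 genes, with p-values adjusted by the Benjamini-Hochberg (BH) procedure and an FDR (false discovery rate) of 0.05, the GB-IL livers had 449 genes higher (3.15%) and 16 lower (0.112%) than DIO, 3.26% of the genes tested in all. Leaving out GB-IL liver 1, GB-IL liver 2 or any of the DIO livers brought this to 0, and leaving out GB-IL liver 4 to 3572. None was called in RYGB against DIO or in GB-IL against RYGB, where 1241 and 3147 genes had an unadjusted p below 0.05. The fit shared 1 estimate of spread per gene over the groups, so RYGB against DIO also carried the spread of GB-IL. Estimated within each group, edgeR's common coefficient of variation between livers was 0.244 in DIO, 0.542 in GB-IL and 0.295 in RYGB. On the first principal component of all genes, with 48.5% of the variance, the scores of GB-IL livers 1 to 4 were 134, 106, 20.1 and -35.3, the last within the DIO range of -45.7 to -21.9. Hepatocyte markers were abundant in every liver, *Xist* did not exceed 0.297 CPM, and *Ddx3y*, on the Y chromosome, had 35.7 to 70.7 CPM, which matches the male label.

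No member was called in any of the 3 comparisons by edgeR's quasi-likelihood test. In GB-IL against DIO, 0 of 4 members passed the FDR, beside 3.26% of all genes tested, and 0 of 4 had an unadjusted p below 0.05, beside 23.1%. The same 0 of 4 came from DESeq2 (9.07% of all genes), from edgeR's exact test (7.92%) and from limma voom with quality weights (4.13%). In RYGB against DIO 0 of 4 passed the FDR (background 0%), and 0 of 4 had an unadjusted p below 0.05 (8.71%). DESeq2 (0.681% of all genes) and the exact test (0.309%) called 0 of 4 in that comparison, and voom with sample quality weights called 2, *Fmo1* and *Fmo5*, beside 11.9% of all genes. In GB-IL against RYGB 0 of 4 passed (background 0%), 0 of 4 had an unadjusted p below 0.05 (22.1%), and 0 of 4 were called by DESeq2 (5.93%), voom (0.807%) and the exact test (4.78%). No member separated any 2 groups without overlap, beside 4.17%, 3.53% and 2.84% of all genes in GB-IL against DIO, RYGB against DIO and GB-IL against RYGB. In bulk liver RNA, fewer cells of a type and less RNA per cell cannot be told apart.

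**Figure D2:**
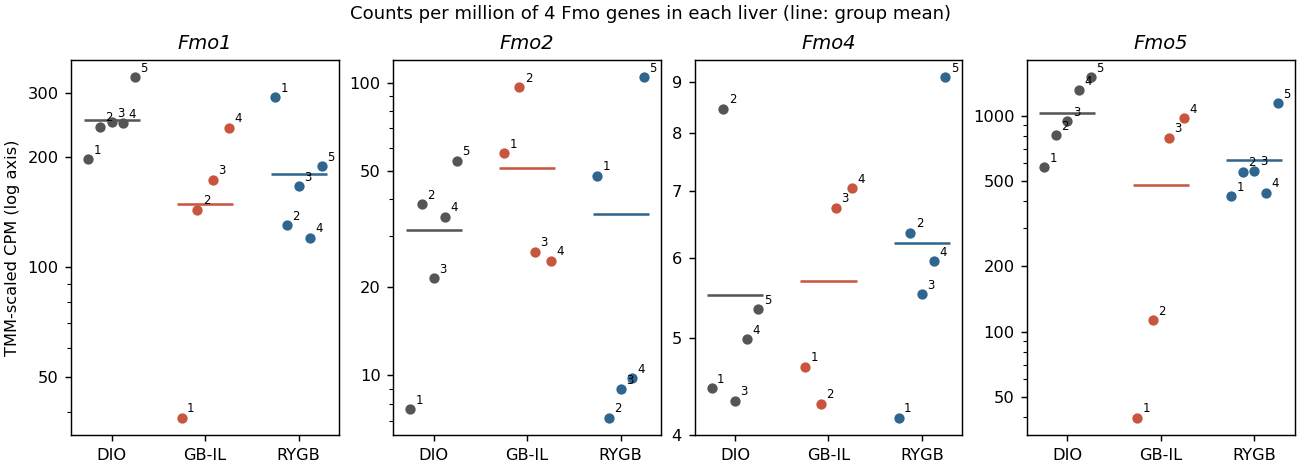
TMM-scaled CPM (log axis, a separate range for each gene) of Fmo1, Fmo2, Fmo4 and Fmo5 in the DIO, GB-IL and RYGB livers. Each point is 1 liver with its number and the line is the group mean; the groups overlap for all 4 genes, and GB-IL livers 1 and 2 lie lowest for Fmo5 at 39.8 and 113 CPM.

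*Fmo5*, the most abundant member, had 577, 808, 940, 1306 and 1506 CPM in DIO livers 1 to 5. In GB-IL livers 1 to 4 it had 39.8, 113, 788 and 971 CPM. In RYGB livers 1 to 5 it had 423, 550, 556, 440 and 1143 CPM. Livers 1 and 2 of GB-IL lay far below every other liver, whereas GB-IL livers 3 and 4 lay inside the DIO range. RYGB livers 1 to 4 were below the lowest DIO liver, and RYGB liver 5 was inside the DIO range.

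The fitted log2 fold change of *Fmo5* was -1.10 in GB-IL against DIO (standard error, SE, 0.685, 95% interval -2.57 to 0.36, BH-adjusted p = 0.328, edgeR quasi-likelihood). In RYGB against DIO it was -0.72 (SE 0.633, BH-adjusted p = 0.776, edgeR quasi-likelihood), with 4 of 5 livers below all DIO livers. Between GB-IL and RYGB it was -0.38 (SE 0.672, BH-adjusted p = 0.741, edgeR quasi-likelihood), and it ran from -0.99 without GB-IL liver 4 to -0.016 without GB-IL liver 1. The GB-IL interval spans folds of 0.169 to 1.28, and thus both a large reduction and a small increase. With voom and sample quality weights the RYGB difference was -1.16 and passed the FDR (BH-adjusted p = 0.0437, limma).

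The spread of *Fmo5* within GB-IL was wide even for this group. The highest GB-IL liver had 24.4 times the lowest, against 2.61 times in DIO and 2.70 times in RYGB. The SD of log2 CPM in GB-IL was 2.23, larger than for 96.7% of the 1426 tested genes in the same of 10 bins of mean level, whose median was 0.560. Without GB-IL liver 4 the log2 fold change against DIO was -1.72 (BH-adjusted p = 0.0964, edgeR quasi-likelihood), and without GB-IL liver 1 it was -0.74.

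Markers of other cells were measured in the same livers, as sums of CPM over each list. The hepatocyte sum (10 of 10 genes, none at 0) was 125842 in GB-IL liver 1 and 151980 in GB-IL liver 2, the livers with least *Fmo5*, and 125425 to 143484 in DIO, so that the hepatocyte sum was within or above the DIO range there. Macrophage markers (10 genes, none at 0) reached 802 to 2214 in GB-IL, 396 to 706 in DIO and 455 to 1085 in RYGB. Their sum was highest in GB-IL liver 3, where *Fmo5* was 788 CPM. Cholangiocyte markers (7 genes, none at 0) were 61.4 to 300 in GB-IL, 33.0 to 65.2 in DIO and 59.2 to 71.3 in RYGB. Neutrophil markers (8 genes, Ly6g at 0 in DIO) were 6.74 to 381 in GB-IL, 5.22 to 10.5 in DIO and 7.75 to 134 in RYGB. Stellate cell markers (12 genes, none at 0) were 280 to 926, 216 to 349 and 314 to 623 in the same order. In every GB-IL liver, 3 macrophage, 2 cholangiocyte, 0 neutrophil, 2 stellate cell and 1 adipocyte genes exceeded all DIO livers. In every RYGB liver 1 stellate cell gene did. Of all genes tested, 4.17% did not overlap between GB-IL and DIO and 3.53% between RYGB and DIO, in either direction. Intestinal and gallbladder epithelium markers were 42.2, 45.6, 38.8 and 233 in GB-IL livers 1 to 4 and 88.2 to 222 in DIO. Lymphocyte markers were 1.47, 2.50, 13.75 and 5.17 in these GB-IL livers and 4.47 to 14.5 in DIO. Exocrine pancreas markers (5 of 6 genes found) summed to 1233 CPM in GB-IL liver 1 and to 1.56 CPM or less in every DIO and RYGB liver. Their part in the *Fmo5* values was not tested.

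*Fmo1*, the form that oxygenates hypotaurine, had 197, 243, 249, 248 and 332 CPM in DIO livers 1 to 5. It had 38.6, 144, 174 and 241 CPM in GB-IL livers 1 to 4 and 292, 130, 166, 120 and 189 CPM in RYGB livers 1 to 5. GB-IL liver 1 was the lowest of the series, GB-IL livers 2 and 3 were also below all DIO livers, and GB-IL liver 4 was within the DIO range. In RYGB all livers but liver 1 were below the lowest DIO liver.

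The log2 fold change of *Fmo1* in GB-IL against DIO was -0.77 (SE 0.399, 95% interval -1.62 to 0.08, BH-adjusted p = 0.256, edgeR quasi-likelihood), with 3 of 4 livers below every DIO liver. In RYGB against DIO it was -0.50 (SE 0.371, BH-adjusted p = 0.730, edgeR quasi-likelihood), with 4 of 5 livers below. GB-IL and RYGB differed by -0.27 (95% interval -1.11 to 0.57, BH-adjusted p = 0.687, edgeR quasi-likelihood), a value that turned to 0.04 without GB-IL liver 1. With voom and sample quality weights the RYGB difference was -0.84 and passed the FDR (BH-adjusted p = 0.0271, limma).

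*Fmo1* and *Fmo5* lie on different chromosomes and varied together over the livers. The Pearson correlation of their log2 CPM was 0.837 over the 14 livers and 0.770 for deviations from the group means, both given as descriptions over livers that share the same groups. Both genes also followed the first principal component of all genes, on which GB-IL livers 1 and 2 stood apart (r = -0.843 for *Fmo5* and -0.704 for *Fmo1*). GB-IL livers 1 and 2 were low for both genes. RYGB liver 1 departed from this pattern, with the second highest *Fmo1* (292 CPM) and, outside GB-IL livers 1 and 2, the lowest *Fmo5* (423 CPM). The *Fmo5* to *Fmo1* ratio per length, which scaling cannot move, was 3.25, 3.70, 4.19, 5.85 and 5.04 in DIO, 1.15, 0.871, 5.04 and 4.47 in GB-IL, and 1.61, 4.69, 3.71, 4.07 and 6.71 in RYGB. *Fmo5* was therefore lower relative to *Fmo1* in GB-IL livers 1 and 2 and RYGB liver 1 than in any DIO liver.

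**Figure D3:**
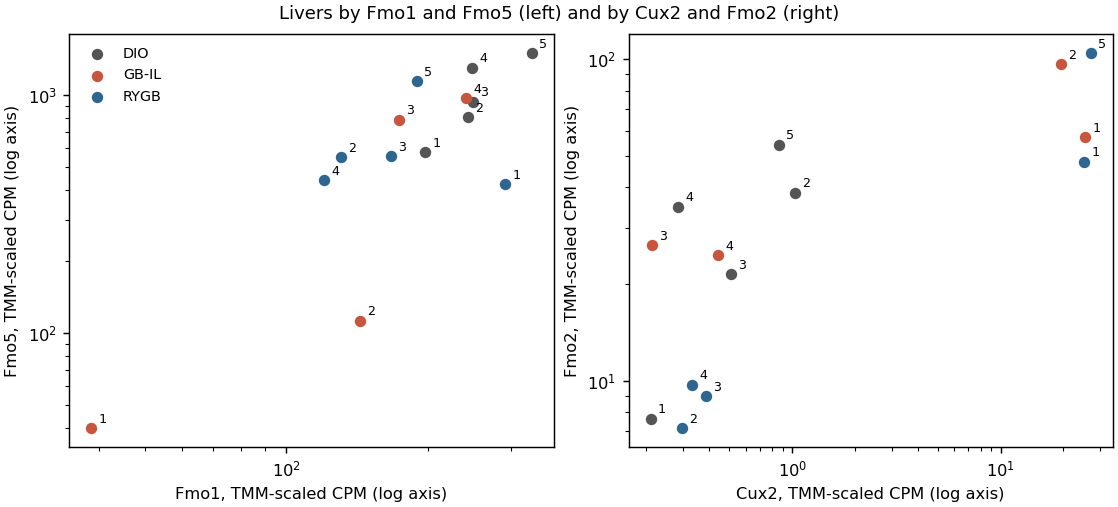
Each point is 1 liver, labelled with its number, in TMM-scaled CPM on log axes. On the left Fmo5 is plotted against Fmo1, with GB-IL livers 1 and 2 lowest for Fmo5 (39.8 and 113 CPM); on the right Fmo2 is plotted against Cux2, with GB-IL livers 1 and 2 and RYGB livers 1 and 5 at 19.4 to 27.0 CPM of Cux2 and all other livers at 1.03 CPM or less.

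*Fmo2*, the lung-type enzyme, had 7.64, 38.5, 21.5, 34.9 and 54.3 CPM in DIO livers 1 to 5. In GB-IL livers 1 to 4 it had 57.4, 96.7, 26.5 and 24.6 CPM, and in RYGB livers 1 to 5 it had 48.1, 7.15, 8.98, 9.76 and 104.7 CPM. The lowest livers, under 10 CPM, were DIO liver 1 and RYGB livers 2 to 4. The 2 GB-IL livers with the least *Fmo5* had more *Fmo2* than any DIO liver, and RYGB fell into 3 livers near the lowest DIO liver and 2 livers above the DIO median.

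The fitted differences of *Fmo2* had wide intervals. In GB-IL against DIO the log2 fold change was 0.71 (SE 0.755, 95% interval -0.90 to 2.32, BH-adjusted p = 0.559, edgeR quasi-likelihood). It was 0.19 in RYGB against DIO (95% interval -1.34 to 1.72, BH-adjusted p = 0.954, edgeR quasi-likelihood) and 0.52 in GB-IL against RYGB (BH-adjusted p = 0.682, edgeR quasi-likelihood). The sign of the RYGB value rested on single livers, since without RYGB liver 5 it was -0.76 and without DIO liver 1 -0.060, and with voom and sample quality weights it was -1.42. The GB-IL against RYGB value ran from 0.0050 without GB-IL liver 2 to 1.48 without RYGB liver 5, and was 1.41 with voom. The highest RYGB liver had 14.7 times the lowest, and the SD of log2 CPM was 1.72 in RYGB and 1.09 in DIO, above 99.6% and 99.4% of the 1425 genes of similar mean level, whose medians were 0.226 and 0.230.

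Across the 14 livers, the tested genes most like *Fmo2* in log2 CPM were *Ndel1* (r = 0.939), *Cyp39a1* (r = 0.926) and *Bnip3* (r = 0.901), and the same 3 genes led for deviations from the group means (0.943, 0.922 and 0.921). *Cyp39a1*, an oxysterol 7α-hydroxylase of bile acid synthesis, ranged from 19.5 to 146 CPM, and *Bnip3*, a mitochondrial protein of mitophagy, from 119 to 449 CPM. *Ndel1*, a partner of the dynein motor, ranged only from 19.2 to 39.8 CPM. These correlations are descriptions over livers that share groups, chosen as the highest of 14252.

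*Cux2*, a transcription factor known for its female-biased level in mouse liver, belonged to the list of regulators and was singled out after its values were seen. It had 0.209, 1.03, 0.509, 0.283 and 0.865 CPM in the DIO livers, 25.4, 19.4, 0.212 and 0.443 CPM in GB-IL livers 1 to 4, and 25.1, 0.296, 0.387, 0.331 and 27.0 CPM in RYGB livers 1 to 5. GB-IL livers 1 and 2 and RYGB livers 1 and 5 thus stood apart from the other 10. *Fmo2* in these livers was 57.4, 96.7, 48.1 and 104.7 CPM, and the only other liver in that range was DIO liver 5, with 54.3 CPM of *Fmo2* and 0.865 CPM of *Cux2*. *Cux2* itself passed the FDR in neither comparison with DIO (log2 fold change 4.26, SE 1.53, adjusted p = 0.126 for GB-IL and 4.17, SE 1.49, adjusted p = 0.479 for RYGB, edgeR's quasi-likelihood test). In RYGB liver 5 endothelial markers summed to 686 CPM, against 194 to 235 CPM in DIO, and neutrophil markers to 134 CPM, against 5.22 to 10.5 CPM. Adipocyte markers summed there to 184 CPM (13.0 to 34.7 in DIO), mesothelial markers to 519 CPM (137 to 270 in DIO), stellate cell markers to 623 CPM (216 to 349 in DIO) and hepatocyte markers to 173577 CPM, the highest of the series. The part of these cells in the *Fmo2* value was not tested.

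*Fmo4*, the least abundant member, had 4.45, 8.46, 4.33, 4.98 and 5.34 CPM in DIO livers 1 to 5. In GB-IL it had 4.68, 4.29, 6.74 and 7.05 CPM, and in RYGB 4.16, 6.36, 5.53, 5.96 and 9.10 CPM, on 76 to 263 counts per liver. All groups spanned nearly the same range, and DIO liver 2 and RYGB liver 5 were highest. GB-IL livers 1 and 2 were not set apart for *Fmo4* as they were for *Fmo5*.

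The log2 fold change of *Fmo4* was 0.05 in GB-IL against DIO (95% interval -0.53 to 0.62, BH-adjusted p = 0.925, edgeR quasi-likelihood). It was 0.18 in RYGB against DIO (95% interval -0.36 to 0.72, adjusted p = 0.879) and -0.13 in GB-IL against RYGB (95% interval -0.70 to 0.44, adjusted p = 0.785), both from the same edgeR test. These intervals were the narrowest of the 4 genes and span folds of 0.695 to 1.54 for GB-IL against DIO.

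**Figure D4:**
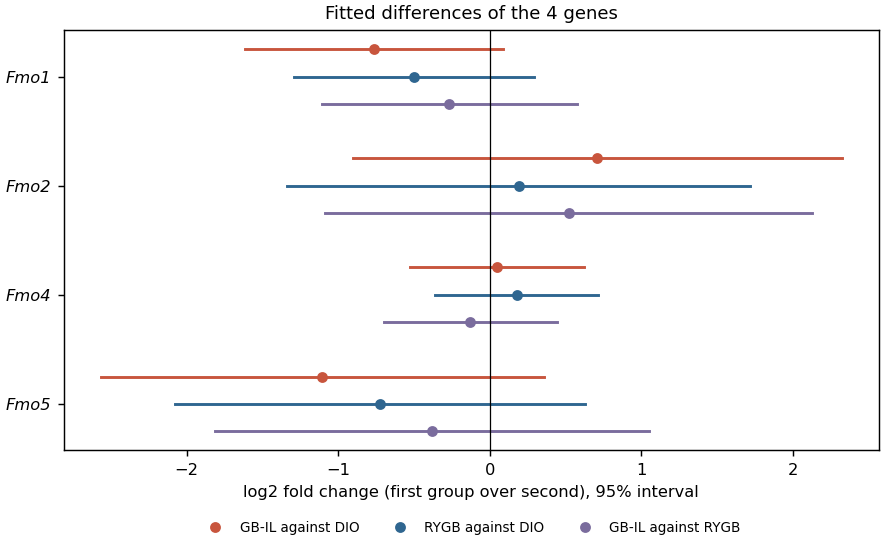
Fitted log2 fold changes of the 4 genes (points) with 95% intervals (lines) from edgeR's quasi-likelihood fit of all 14 livers, in GB-IL against DIO, RYGB against DIO and GB-IL against RYGB. Every interval includes 0, and the widest, for Fmo2 in GB-IL against DIO, runs from -0.90 to 2.32.

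Genes most like the other members were listed by the same rule. For *Fmo5* these were *Fgf1* (r = 0.971), *B4galnt3* (0.963) and the unnamed *Gm11837* (0.953), and *Fgf1*, a fibroblast growth factor with metabolic actions, ranged from 17.9 to 216 CPM. In deviations from group means *Zfp300* (0.964) and *Galnt11* (0.958) joined *Fgf1* (0.958). *Zfp300*, *Gm11837* and *B4galnt3* had low levels, with means of 0.457, 1.03 and 2.01 CPM. *Fmo5* itself followed the first principal component (r = -0.843), on which GB-IL livers 1 and 2 stood apart. For *Fmo1* they were *2700089E24Rik* (0.934), *L3hypdh* (0.933) and *Tmem241* (0.928), with *Dak*, a dihydroxyacetone kinase, first for deviations (0.936). For *Fmo4* they were *Herc3* (0.858), *Ssh2* (0.853) and *Prkx* (0.843), and *Cstf2* (0.917), *Nupl1* (0.906) and *Masp1* (0.899) for deviations. The gene lists of the 4 members had no gene in common.

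Genes whose products act with or beside the FMO enzymes were examined in 5 lists, 86 genes in all. At the FDR 0 of 86 were called in each of the 3 comparisons by edgeR's quasi-likelihood test, beside 3.26%, 0% and 0% of all genes. At an unadjusted p below 0.05 there were 28 in GB-IL against DIO (32.6%, beside 23.1% of all genes), 10 in RYGB against DIO (11.6%, beside 8.71%) and 15 in GB-IL against RYGB (17.4%, beside 22.1%). In the same order DESeq2 called 7, 0 and 5 (8.14%, 0% and 5.81%, beside 9.07%, 0.681% and 5.93% of all genes). With voom and sample quality weights there were 8, 14 and 0 (9.30%, 16.3% and 0%, beside 4.13%, 11.9% and 0.807%). The exact test called 7, 0 and 4 (8.14%, 0% and 4.65%, beside 7.92%, 0.309% and 4.78%).

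The list of other phase I enzymes and their redox partners (23 genes) was the most one-sided. In GB-IL 21 of 23 had a lower and 2 a higher fitted level than in DIO, with a median log2 fold change of -0.88 beside 0.04 for all genes tested, and in RYGB 20 were lower and 3 higher, with a median of -0.51 beside 0.01. Of all genes tested, 53.1% were higher in GB-IL than in DIO and 51.5% in RYGB, and these shares and medians also apply to the lists that follow. Both comparisons use the same DIO livers, and genes that vary together over livers are not independent. No gene of the list passed the FDR in either comparison. *Ephx2*, the soluble epoxide hydrolase, had 1075, 990, 1260, 1344 and 1294 CPM in DIO, 464, 413, 522 and 977 CPM in GB-IL and 635, 785, 1060, 858 and 490 CPM in RYGB. All 4 GB-IL livers were below every DIO liver, liver 4 only just, and 4.17% of all genes tested did not overlap between these groups, in either direction. Relative to DIO the GB-IL log2 fold change was -1.01 (SE 0.288, BH-adjusted p = 0.0674, edgeR quasi-likelihood). The carboxylesterase gene *Ces2a* differed from DIO by -1.11 in GB-IL (SE 0.404, BH-adjusted p = 0.131, edgeR quasi-likelihood), with 3 of 4 livers below all DIO livers.

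Of the cofactor genes (13, for FAD and NADPH supply), 7 were higher and 6 lower in GB-IL than in DIO (median 0.08 on the log2 scale), and 5 higher and 8 lower in RYGB (median -0.07), none past the FDR. *G6pdx*, the first enzyme of the pentose phosphate pathway, averaged 12.0 ± 6.27 CPM in the 4 GB-IL livers against 5.998 ± 1.30 CPM in the 5 DIO livers (SD), which gave a log2 difference of 1.00 (BH-adjusted p = 0.0829, edgeR quasi-likelihood). *Pgd*, which makes NADPH in the same pathway, differed by 0.48 (BH-adjusted p = 0.152, edgeR quasi-likelihood). The malic enzyme gene *Me1* had 408, 280, 225, 198 and 208 CPM in DIO, 114, 88.5, 81.8, 89.2 and 59.7 CPM in RYGB, and 38.8, 42.8, 32.1 and 410.0 CPM in GB-IL. All RYGB livers and 3 GB-IL livers were below every DIO liver, while GB-IL liver 4 was the highest of the series. Between RYGB and DIO, 3.53% of all genes tested did not overlap, in either direction. The log2 fold change of *Me1* was -1.60 in RYGB (SE 0.596, adjusted p = 0.507) and -1.01 in GB-IL (SE 0.630, adjusted p = 0.331), both by edgeR's quasi-likelihood test.

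In the taurine and hypotaurine list (11 genes), which holds the steps on either side of the FMO1 reaction, 4 were higher and 7 lower in GB-IL than in DIO (median -0.13) and 3 higher and 8 lower in RYGB (median -0.06), none past the FDR. *Slc6a13*, a plasma membrane carrier of GABA and taurine, had 225 to 242 CPM in the 5 DIO livers and 59.6, 75.6, 201 and 187 CPM in the GB-IL livers. All GB-IL livers were lower, most so livers 1 and 2 (log2 fold change -0.83, SE 0.310, BH-adjusted p = 0.137, edgeR quasi-likelihood). Between GB-IL and DIO, 4.17% of all genes tested did not overlap, in either direction. *Gadl1*, a decarboxylase of cysteine sulfinate and aspartate, differed by 0.75 in GB-IL (BH-adjusted p = 0.165, edgeR quasi-likelihood). Its level was low, with 1.87 to 3.17 CPM in DIO and 2.51 to 7.46 CPM in GB-IL. *Csad*, the cysteine sulfinate decarboxylase gene of this list, went the other way, by -1.255 in GB-IL (BH-adjusted p = 0.178, edgeR quasi-likelihood). *Slc27a5*, the bile acid CoA ligase, differed by -0.47 in RYGB (BH-adjusted p = 0.582, edgeR quasi-likelihood), with 4 of 5 livers below all DIO livers.

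Methionine, methionine sulfoxide and choline oxidation genes (15) showed 5 higher and 10 lower in GB-IL (median -0.42) and 4 higher and 11 lower in RYGB (median -0.19), none past the FDR. *Msra*, a methionine sulfoxide reductase, differed from DIO by -0.67 in GB-IL (adjusted p = 0.132) and -0.46 in RYGB (adjusted p = 0.587) by edgeR's quasi-likelihood test. *Mat1a*, which makes S-adenosylmethionine in liver, had 3063 to 5935 CPM in DIO and 14905, 10477, 5999.7 and 3978 CPM in GB-IL livers 1 to 4, a log2 fold change of 1.00 (SE 0.368, BH-adjusted p = 0.134, edgeR quasi-likelihood). GB-IL livers 1 and 2, lowest in *Fmo5*, were highest in *Mat1a*. *Msrb3*, another methionine sulfoxide reductase, differed by 0.74 in RYGB (BH-adjusted p = 0.468, edgeR quasi-likelihood).

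Of 24 regulators known or proposed for Fmo genes in liver, 8 were higher and 16 lower in GB-IL than in DIO (median -0.14), and 10 higher and 14 lower in RYGB (median -0.14), none past the FDR. *Onecut1*, a liver-enriched transcription factor, differed from DIO by -2.77 in GB-IL on the log2 scale (SE 0.836, BH-adjusted p = 0.0803, edgeR quasi-likelihood). In RYGB it differed by -1.97 (SE 0.737, BH-adjusted p = 0.507, edgeR quasi-likelihood). Its level was low, with 0.368, 0.565, 2.80 and 1.77 CPM in GB-IL livers 1 to 4 and 1.53 to 3.53 CPM in RYGB. DIO liver 2 had 33.3 CPM of *Onecut1* and the other DIO livers 1.78 to 5.86 CPM. *Ahr*, the aryl hydrocarbon receptor, had 31.1 to 44.3 CPM in DIO and 64.4, 65.2, 62.6, 56.8 and 52.2 CPM in RYGB. All RYGB livers were above every DIO liver, and the log2 fold change was 0.70 (SE 0.210, BH-adjusted p = 0.387, edgeR quasi-likelihood). *Ahr* was named for the smallest p of its list in this comparison, in which 3.53% of all genes tested did not overlap, in either direction.

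**Figure D5:**
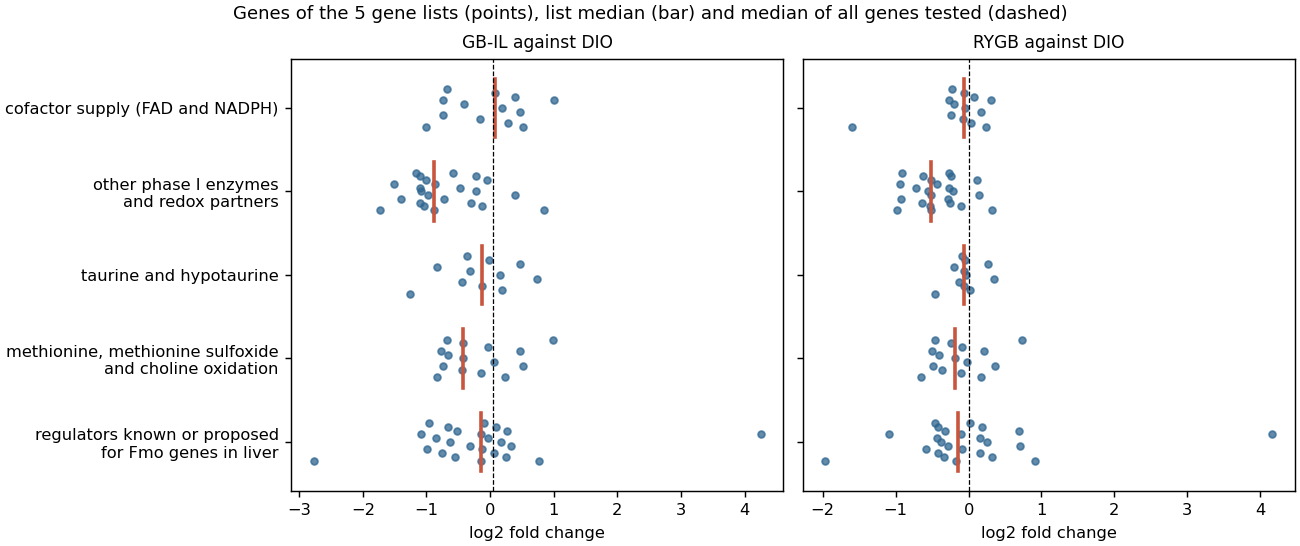
Log2 fold changes of the 86 genes of the 5 lists (points), with the list median (bar) and the median of all 14252 genes tested (dashed line), in GB-IL against DIO and RYGB against DIO. Most points of the other phase I enzymes lie left of 0, with medians of -0.88 and -0.51; the point far to the right among the regulators is Cux2, at 4.26 and 4.17.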

How the data were processed

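Liver RNA of 14 male mice (5 DIO, 4 GB-IL, 5 RYGB) was sequenced. The authors amplified total RNA with the Ovation kit, aligned Illumina reads to mm10 with TopHat2 and counted them per gene with HTSeq; their versions, annotation and strand setting are not given in sources used here. Per the labels 2 stranded TruSeq kits were used, not assigned to livers, so kit could not be a term. The deposited values are raw counts, not normalized.

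Software was edgeR 4.0.16, DESeq2 1.42.0 and limma 3.58.1 (R 4.3.3) plus pandas 2.3.3, numpy 2.4.6 and scipy 1.17.1 (Python 3.11.15). Genes were filtered by filterByExpr by group, scaled by TMM and fitted with edgeR's quasi-likelihood model (3 group means, 14 livers). Benjamini-Hochberg (BH) adjustment was over 14252 genes, with an FDR of 0.05. Standard errors were the log2 fold change divided by the root of F. The pipeline was run on simulated counts with planted changes and the same spread in every group, unlike these livers, which checked the code only. RPKM used exon unions of GENCODE M21 (GRCm38), and log2 CPM a prior count of 2. Marker sums are CPM of the total count. No 2 libraries were identical.

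The 4 members and all lists were chosen with earlier results of these data known. Named from each list were the genes called (none), the 2 with the smallest p in GB-IL against DIO and the 1 in RYGB against DIO, and for each member the 3 genes of highest correlation. *Cux2* (from the regulator list), *Csad* (from the taurine list), *Xist* and *Ddx3y* were singled out after values were seen. Other family members in the table, and 1 gene that the rule names, are not reported here. Replicate numbers were not used as pairs in the main fit. Sequence was taken from RefSeq, which held no *Fmo1* window here.

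Alternatives were DESeq2, upper quartile or RLE scaling, voom with sample quality weights, the exact test, robust estimation, no filter, a mean of at least 50 counts, the 2 groups compared only, the replicate block, a log2 fold change limit of 1, longest transcripts, no TMM, and each liver left out.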

Additional observations from a re-analysis of the deposited data

Results flagged for a closer look

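Within each group, the highest and the lowest liver were compared with the rest by Dixon's criterion at the 95% level. Of 57 sets of values examined 6 exceeded it, where chance would give about 2.85 for independent sets of normally distributed values. CPM and RPKM were not logged here. The sum of the 4 members includes *Fmo5*, so these sets are not independent. *Fmo4* in DIO liver 2 stood apart at 8.46 CPM. In RYGB liver 5 the outlying values were 1143 CPM of *Fmo5*, 33.7 CPM of *Msrb3* and 252.5 RPKM for the sum of the 4 members. *Onecut1* in DIO liver 2 stood apart at 33.3 CPM, and *Me1* in GB-IL liver 4 at 410.0 CPM.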

How the results depend on the processing

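Members passed the FDR under 1 alternative only, voom with sample quality weights in RYGB against DIO (2 of 4: *Fmo1* at -0.84, *Fmo5* at -1.16 on the log2 scale); in GB-IL against DIO and GB-IL against RYGB no setting called a member, and leaving out single livers called 0 of 4 in all 3 comparisons. Fitted without the GB-IL livers, RYGB against DIO gave -0.72 for *Fmo5* (BH-adjusted p = 0.281) and -0.50 for *Fmo1* (BH-adjusted p = 0.299), both by edgeR's quasi-likelihood test. Log2 fold changes near 0 turned sign. In GB-IL against DIO, *Fmo2* was -0.013 with voom, and *Fmo4* lay between -0.079 and 0.25 with single livers left out (below 0 without DIO liver 1 or 3 or GB-IL liver 3 or 4). In RYGB against DIO, *Fmo2* was -1.42 with voom, -0.41 with the replicate block, and between -0.76 (without RYGB liver 5) and 0.48 with single livers left out. In GB-IL against RYGB, *Fmo1* was 0.042 with voom and between -0.60 and 0.045 (without GB-IL liver 1) with single livers left out, and *Fmo4* was 0.079 with voom and between -0.25 and 0.032 (without RYGB liver 5). The cause was not tested.

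Counts of all genes called moved more. In GB-IL against DIO they were 1292 with DESeq2, 1129 with the exact test, 1 with the replicate block, 0 with the 2 groups only and 0 to 3572 with 1 liver left out. In RYGB against DIO they were 97 with DESeq2, 1690 with voom, 44 with the exact test, 33 with the 2 groups only and 0 to 5 with 1 liver left out. In GB-IL against RYGB they were 845 with DESeq2, 115 with voom, 681 with the exact test, 51 with no filter and 0 to 3120 with 1 liver left out. Of the 86 list genes, GB-IL against DIO gave 7 with DESeq2, 8 with voom, 7 with the exact test and 0 to 36 with 1 liver left out; RYGB against DIO gave 14 with voom, 2 with the 2 groups only and 0 to 1; GB-IL against RYGB gave 5 with DESeq2, 4 with the exact test and 0 to 26. Per kilobase of the longest transcript *Fmo1* was 81.7, 48.0 and 57.8 RPKM in DIO, GB-IL and RYGB, and *Fmo4* 2.05, 2.12 and 2.32 RPKM.

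Deviations of livers with the same replicate number correlated at -0.381 to 0.381 over 13 pairs, and 1 of 14 livers correlated best with its own number. These values gave no sign of pairing by number, though they cannot show whether livers shared a batch. The replicate block changed no call of a member; *Fmo2* in GB-IL against RYGB was 1.31 under it. *Fmo1*, *Fmo2* and *Fmo5* had at least 145 counts in every liver, whereas *Fmo4* rested on 76 to 263. With 4 and 5 livers per group, the spread between livers limits what could be detected for *Fmo2* and *Fmo5*, and the 95% intervals give its size.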
